A study of Rattus norvegicus with 30 samples.

Results

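Rat liver cells kept under 250 µM dioctyl phthalate were compared after 48 h and after 24 h of exposure, across all genes measured. The comparison holds 10 of the series' 30 arrays, taken by the dose and time in the sample titles and by no measured value: 5 at 48 h and 5 at 24 h. Both groups were primary hepatocytes of male Sprague Dawley rats, bought frozen, thawed onto collagen, covered with Matrigel and given dioctyl phthalate, an ester that softens plastics, on culture day 3 from solutions made in 1% DMSO. The other groups, used here only beside this comparison, were 1000 µM at 48 h and at 24 h and vehicle (1% DMSO alone) at 48 h and at 24 h, with 5 wells each. Each array read 1 well of its own. No source used here gives the animals, their ages or the number of donors behind the purchased cells, so every error below is a spread between wells. No array was taken at the start of exposure, and hours under the compound advance together with hours in culture. Their contributions cannot be told apart within these 10 arrays. The same interval in vehicle is given beside the largest changes and beside part of the list counts.

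Hepatocytes make most plasma proteins, bile acids, cholesterol and triglyceride, and they oxidise fatty acids in mitochondria and peroxisomes. In rodent liver, phthalate esters are known as activators of PPARα, a nuclear receptor that switches on genes of fatty acid uptake and oxidation. Sterol and fatty acid synthesis genes are driven by the SREBP transcription factors, which are released when membranes are low in sterol. The acute phase response is the hepatocyte's output of defence proteins under interleukin signals, and interferon-induced genes are switched on by STAT and IRF factors that bind a motif called ISRE. Hepatocytes taken into culture are known to lose liver-specific transcripts with time.

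The values are array intensities, and levels are given as log2 (signal + 1) with 1 value per well. A change is the mean at 48 h minus the mean at 24 h on that log2 scale, with the standard error of limma, so 1 unit is a 2-fold difference. A gene is called changed where its p, adjusted by Benjamini and Hochberg's method across 10528 tested genes, is under 0.05, and a change given with its standard error alone passed that test. Correlation of log2 signals across genes was 0.979 to 0.982 between arrays at 48 h, 0.975 to 0.985 between arrays at 24 h and 0.968 to 0.980 across the times. The ratio of 3' to 5' probe sets of beta-actin, which rises as RNA shortens, was on the log2 scale 1.15 ± 0.157 at 48 h and 1.16 ± 0.078 at 24 h (SD, n = 5 each, exact two-sided permutation p = 0.96). In 4 of the 5 vehicle arrays at 48 h this ratio was raised (group mean 1.72 ± 0.494, against 1.14 ± 0.084 in vehicle at 24 h), which touches the comparisons with vehicle and not the comparison within 250 µM. Hepatocyte transcripts matched the label: Alb, which encodes albumin, was at 16.03 ± 0.17 at 48 h and 15.96 ± 0.18 at 24 h (SD, n = 5 each).

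Between the times, 1693 genes changed, 16.1% of those tested: 882 rose (8.38%) and 811 fell (7.7%). Most changes were small, with a median size of 0.33 among the called genes. A change of at least 2-fold was called in 22 genes that rose (0.209%) and 51 that fell (0.484%). The wells at 48 h all lay above those at 24 h for 736 genes (6.99%) and all below for 675 (6.41%). The median change over all tested genes was -0.02. With array medians equalised, 974 genes were called, 707 that rose and 267 that fell, so the count of falls rests more on the authors' scaling than the count of rises.

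Fatty acid desaturases were among the largest rises. Scd2, which makes monounsaturated fatty acids, had levels of 12.18, 12.07, 11.91, 11.82 and 11.89 at 48 h, against 9.36, 9.57, 8.98, 9.55 and 9.51 at 24 h, with no overlap and a change of 2.58 ± 0.11 (adjusted p = 2.16e-10). Fads1, the delta-5 desaturase of polyunsaturated fatty acids, had 13.32, 13.12, 13.13, 13.29 and 13.27 at 48 h, against 11.51, 11.52, 11.20, 11.08 and 11.46 at 24 h, again without overlap (change 1.87 ± 0.08, adjusted p = 2.89e-10). Pnpla3, a lipid droplet protein of triglyceride turnover, had 10.26, 9.99, 10.37, 10.26 and 10.22 at 48 h, against 8.79, 8.51, 8.5, 8.51 and 9.13 at 24 h, and every well at 48 h was the higher (change 1.53 ± 0.14, adjusted p = 1.42e-06). Acta1, the skeletal muscle form of actin, had 11.72, 12.17, 11.91, 12.25 and 11.95 at 48 h, against 10.40, 10.34, 10.66, 10.59 and 10.49 at 24 h (change 1.5 ± 0.10, adjusted p = 2.25e-08). In these 4 genes the gap between the times was wider than the spread of the wells of either time.

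The largest fitted rise was that of Susd3, with 9.20, 9.58, 9.62, 9.43 and 9.47 at 48 h, against 8.03, 5.07, 7.62, 6.75 and 4.57 at 24 h. The wells at 24 h were widely spread and their mean lay under the low-signal limit of 7.88 used to choose genes, so its change of 3.05 ± 0.54 (adjusted p = 0.000857) is 1.58 when counted from that limit, below those of Scd2, Fads1 and Tsx. The other 7 of the 12 largest rises were Tsx (1.71), Cttnbp2 (1.45), Pik3c2g (1.35), Pdzph1 (1.33), Ubd (1.32), Ggt1 (1.19) and Hykk (1.16), all changed without overlap. Ubd encodes a ubiquitin-like modifier, Ggt1 the enzyme that opens glutathione breakdown outside the cell, and Pik3c2g a class II phosphoinositide 3-kinase. Ubd averaged 14.18 ± 0.12 at 48 h and 12.86 ± 0.15 at 24 h (SD, n = 5 each). In vehicle over this interval Scd2 changed by 2.54, Fads1 by 1.11, Pnpla3 by 0.72, Acta1 by 1.36 and Susd3 by 1.34. Tsx changed there by 1.35, Cttnbp2 by 1.17, Pik3c2g by 0.71, Pdzph1 by 0.36, Ubd by 0.72, Ggt1 by 0.70 and Hykk by 0.58. All vehicle arrays were kept for these values, and both vehicle means of Cttnbp2 lay under the low-signal limit.

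Both inhibitors of interleukin-1 signalling below were among the largest falls. Il1rn, which encodes the secreted antagonist of the interleukin-1 receptor, had levels of 6.41, 6.68, 6.47, 6.65 and 6.17 at 48 h, against 9.90, 9.88, 10.15, 9.72 and 9.95 at 24 h, a change of -3.44 ± 0.20 (adjusted p = 6.8e-09). Il1r2, the decoy receptor that binds interleukin-1 without signalling, had 6.92, 6.50, 8.29, 5.81 and 7.21 at 48 h, against 10.08, 9.97, 10.41, 10.36 and 9.77 at 24 h, a change of -3.17 ± 0.34 (adjusted p = 7.37e-06). In both genes the times did not overlap, and the mean at 48 h lay under the low-signal limit. Counted from that limit, the changes are -2.04 for Il1rn and -2.24 for Il1r2.

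Genes of the serpin family followed. Serpina3c had 11.85, 11.81, 11.71, 11.77 and 11.99 at 48 h, against 14.11, 14.20, 14.14, 14.26 and 14.10 at 24 h, a tight pair of groups with a change of -2.34 ± 0.06 (adjusted p = 1.95e-13). Serpina6, the corticosteroid-binding globulin of plasma, changed by -2.24 ± 0.11 and Serpina3l by -1.52 ± 0.07, both without overlap. Serpina3 genes are close copies of each other, and how far their probes share sequence was not tested. The rest of the 12 largest falls were Gstp3 (-2.27, or -1.41 from the limit), Isg15 (-2.16), Cyp2c13 (-1.83), Cyp1a2 (-1.82), Ppp1r9b (-1.76, or -0.84 from the limit), Syn1 (-1.56, or -1.06 from the limit) and S100a6 (-1.53). S100a6, a calcium-binding protein, had 12.21, 12.31, 12.25, 12.36 and 12.16 at 48 h, against 13.85, 13.90, 13.88, 13.76 and 13.58 at 24 h (adjusted p = 8.84e-11), and no well at 48 h reached the level of any at 24 h. In vehicle over this interval Il1rn changed by -2.28, Il1r2 by 0.19, Serpina3c by -2.43, Serpina6 by -2.52, Serpina3l by -1.53 and Gstp3 by -2.13. Isg15 changed there by -0.76, Cyp2c13 by -1.79, Cyp1a2 by -1.46, Ppp1r9b by -0.14, Syn1 by 0.54 and S100a6 by -0.54. The vehicle means of Il1rn and Gstp3 at 48 h lay under the low-signal limit.

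**Figure D1:**
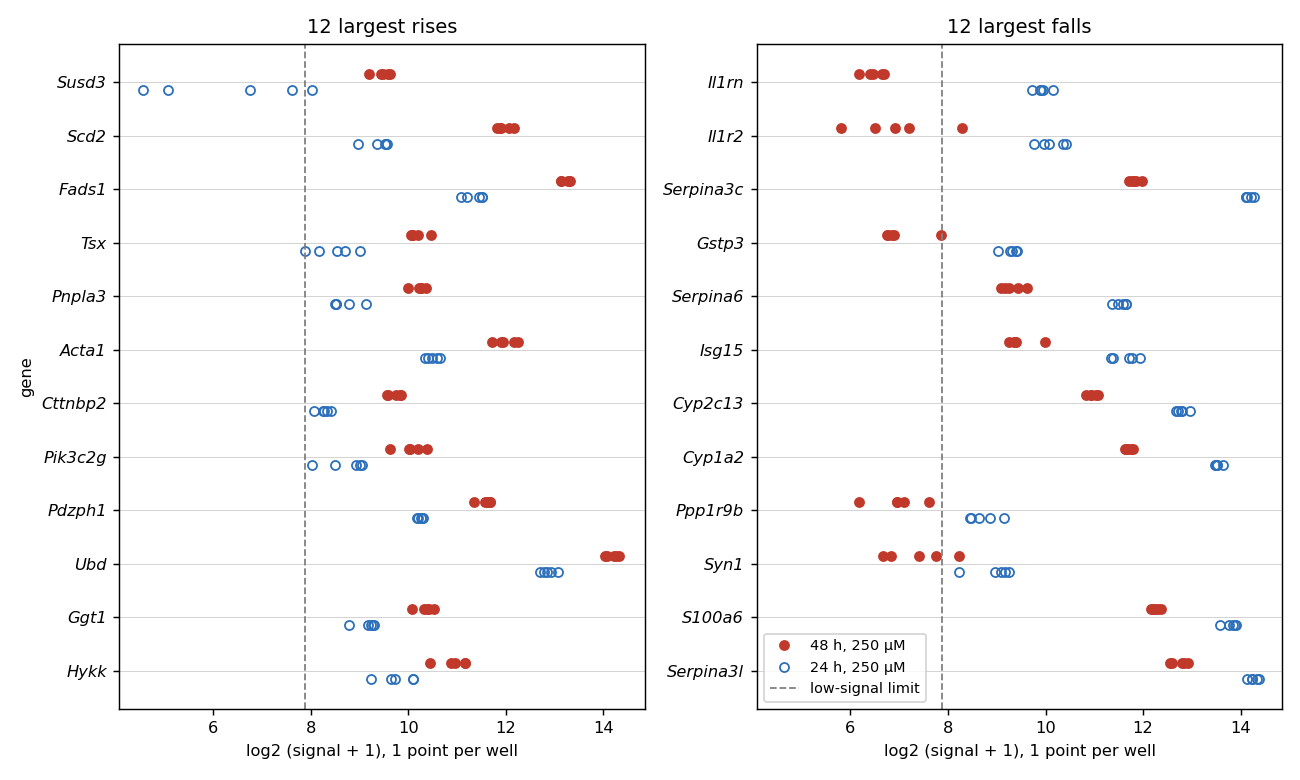
Level of the 12 genes with the largest rise (left) and the 12 with the largest fall (right), as log2 (signal + 1) on the horizontal axis and 1 point per well, filled at 48 h (upper) and open at 24 h (lower) under 250 µM. The dashed line is the low-signal limit of 7.88, and in each gene the 5 points of one time lie apart from the 5 of the other.

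Genes of known pathways were then counted in 34 lists. Each count below is read against the shares over all tested genes, 8.38% for rises and 7.7% for falls, and members of a list that did not pass the low-signal filter are left out of its count.

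**Figure D2:**
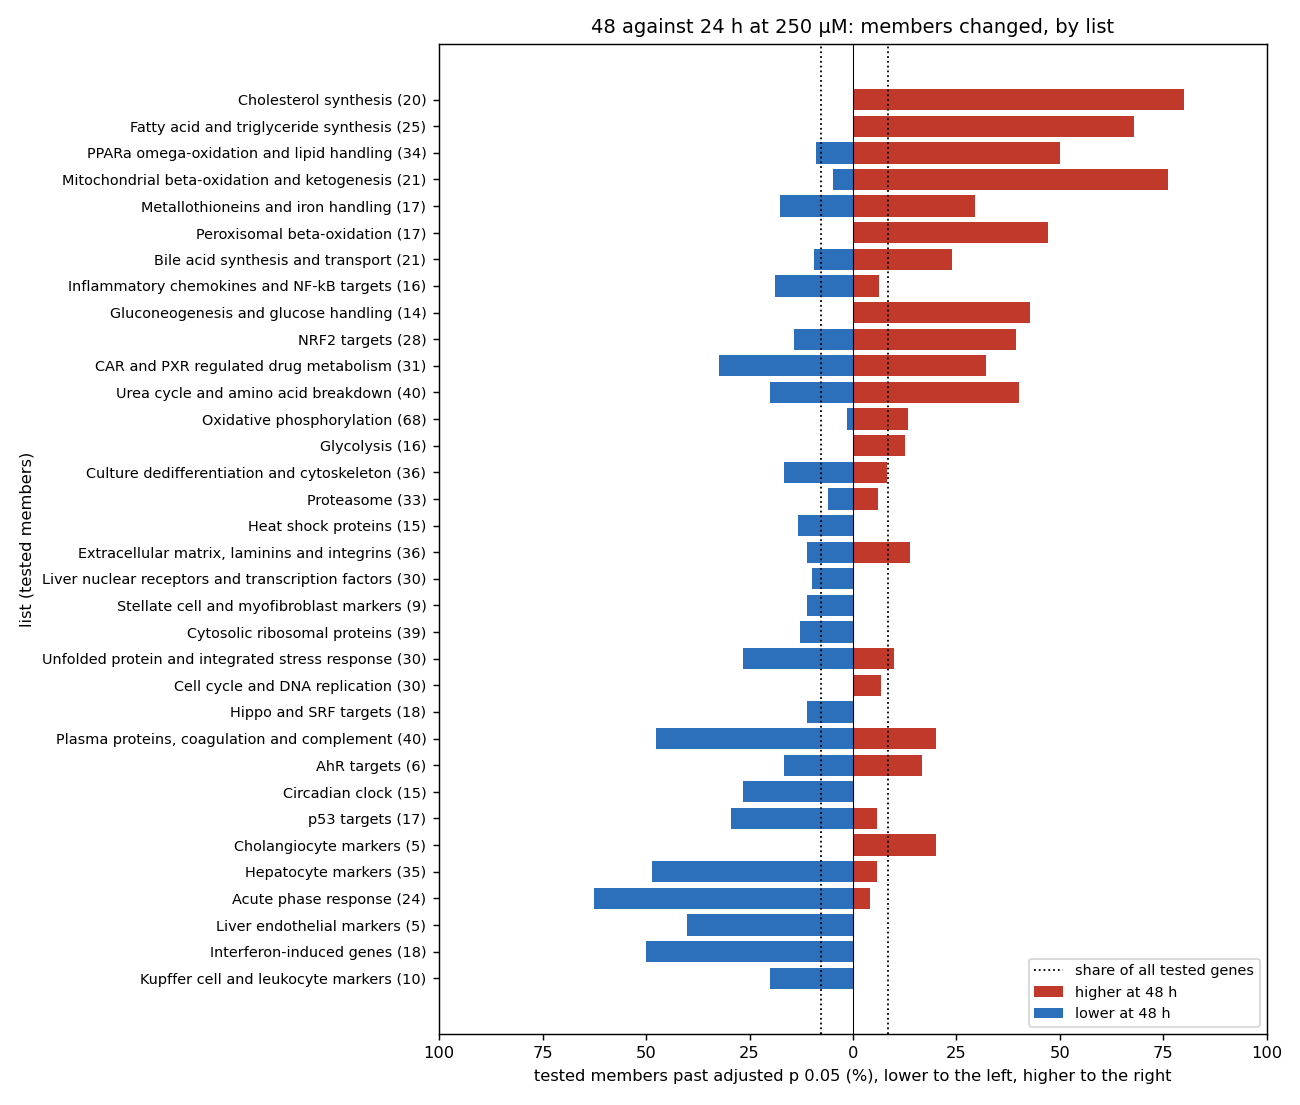
Share of the tested members of each of 34 gene lists that passed the test (horizontal axis, percent), lower at 48 h to the left and higher at 48 h to the right, ordered by median change, with the number of tested members in brackets. Dotted lines mark the shares over all tested genes, 8.38% higher and 7.7% lower, and cholesterol synthesis stands at the top.

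Cholesterol synthesis genes rose almost throughout. Of 25 entries 20 were tested, and 16 rose, 0 fell and 4 did not pass, with a median change of 0.53 against -0.02 over all tested genes. Without replicate 2 at 24 h 1 fell. In 15 of the 16 that rose the wells at 48 h all lay above those at 24 h, and Ebp, a sterol isomerase, was the exception. Its change of 0.18 ± 0.06 (adjusted p = 0.0415) is near the threshold, and leaving out replicate 1, 4 or 5 at 24 h or 1, 3, 4 or 5 at 48 h ended the call, with changes of 0.15 to 0.19. Sqle, squalene epoxidase, had 13.35, 13.21, 13.22, 13.36 and 13.28 at 48 h, against 12.51, 12.52, 12.60, 12.46 and 12.70 at 24 h (change 0.73 ± 0.05, adjusted p = 9.77e-08). Dhcr7, the enzyme of the final step to cholesterol, changed by 0.75 ± 0.06, Cyp51, which removes a methyl group from lanosterol, by 0.71 ± 0.06, and Idi1, the isomerase of isoprenoid units, by 0.55 ± 0.04. Msmo1 changed by 0.76 ± 0.06 and Lss, lanosterol synthase, by 0.64 ± 0.07. The changes of the 16 ran from 0.18 to 0.76.

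In fatty acid and triglyceride synthesis, 17 of the 25 tested members (of 26 entries) rose and 0 fell, with a median of 0.28. Beside Fads1 and Pnpla3, Fasn, the fatty acid synthase, had 12.48, 12.03, 12.28, 11.98 and 12.22 at 48 h, against 11.11, 11.26, 11.15, 10.83 and 11.21 at 24 h (change 1.08 ± 0.10, adjusted p = 9.93e-07). Dgat1, which adds the last acyl chain of triglyceride, changed by 0.45 ± 0.05. Me1, the malic enzyme that supplies reducing power for lipid synthesis, changed by 0.45 ± 0.05. At 1000 µM, where 9.91% of all tested genes rose and 8.11% fell, the same interval gave 16 rises and 0 falls among the cholesterol genes (median 0.44) and 14 and 0 among the fatty acid genes (median 0.32). In vehicle, where 16.4% rose and 11.7% fell, it gave 13 and 1 among the cholesterol genes (median 0.31) and 13 and 1 among the fatty acid genes (median 0.30). Without the 4 vehicle arrays of raised actin ratio the medians in vehicle were 0.25 and 0.06, against 0.003 over all tested genes. That fit leaves 1 vehicle array at 48 h and can call few genes, so list counts from it are left out.

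Promoter sequence was read for these genes from RefSeq (build GRCr8, 250 bases before to 50 after the start), where 13 of the 16 cholesterol genes that rose had an entry. The CCAAT motif, on either strand, was in 10 of the 13, against 37.74% of all 27457 promoters. The strict SRE search, TCACNCCAC, matched 0 of the 13 windows and 1.13% of all promoters. Among the fatty acid and triglyceride genes that rose, 8 of 13 windows held CCAAT and 0 held the SRE letters. Members of these lists that did not rise were not counted separately. The promoters of the 2 genes with the largest rise among those with CCAAT are shown, with each CCAAT, or ATTGG on the other strand, in capitals. The Msmo1 window is chr16:29746863-29747162 on the plus strand and the Lss window chr20:12118181-12118480 on the minus strand.
Msmo1: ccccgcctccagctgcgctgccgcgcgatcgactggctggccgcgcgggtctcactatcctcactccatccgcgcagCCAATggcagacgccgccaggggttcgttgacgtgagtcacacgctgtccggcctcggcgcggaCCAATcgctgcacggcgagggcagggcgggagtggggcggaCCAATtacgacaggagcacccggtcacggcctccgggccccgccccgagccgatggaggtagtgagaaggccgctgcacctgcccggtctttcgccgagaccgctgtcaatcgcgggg
Lss: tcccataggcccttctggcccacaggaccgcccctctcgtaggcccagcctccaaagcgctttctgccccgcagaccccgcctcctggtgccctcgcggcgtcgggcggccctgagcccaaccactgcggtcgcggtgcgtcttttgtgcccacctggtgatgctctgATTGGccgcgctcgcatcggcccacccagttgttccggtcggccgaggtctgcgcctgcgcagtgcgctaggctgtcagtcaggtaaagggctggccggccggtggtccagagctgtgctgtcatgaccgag
Msmo1 held 3 matches, the first at position -173 relative to the start and the last at -68, and Lss held 1 at -82.

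Many fatty acid oxidation genes rose as well. Of 23 mitochondrial beta-oxidation and ketogenesis entries 21 were tested, and 16 rose and 1 fell (median 0.24). Acadm and Acads, which open the oxidation of medium and short chains, changed by 0.58 ± 0.04 and 0.51 ± 0.05. Cpt1b, a carnitine palmitoyltransferase that is the main form in muscle, changed by 0.80 ± 0.06, while Cpt1a, the liver form, overlapped between times (0.23 ± 0.09, adjusted p = 0.0994). Bdh1, which makes the ketone body hydroxybutyrate, changed by 0.44 ± 0.06. The gene that fell was Pdk4, a kinase that holds glucose carbon out of oxidation (-0.20 ± 0.05, adjusted p = 0.0112). Its call was lost with array medians equalised (adjusted p = 0.296). Over the same interval in vehicle 8 genes of the list rose and 4 fell (median 0.13). Without the 4 arrays of raised actin ratio the median there was -0.002.

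Peroxisomal beta-oxidation had 17 tested members of 22 entries, of which 8 rose and 0 fell (median 0.16), where 2 fell with quantile normalization and 1 without replicate 4 at 24 h. In vehicle 5 rose and 1 fell, with a median of 0.005 both with and without the 4 arrays. Ehhadh, the bifunctional enzyme of the peroxisome, had 15.23, 14.9971, 15.17, 15.08 and 15.19 at 48 h, against 14.17, 14.27, 14.15, 14.10 and 14.43 at 24 h (change 0.91 ± 0.06, adjusted p = 2.95e-08), with all wells at 48 h above those at 24 h. Acot8, a peroxisomal thioesterase, changed by 0.56 ± 0.04, Decr2, a reductase for unsaturated chains, by 0.39 ± 0.04 and Slc27a2, a very long chain acyl-CoA synthetase, by 0.46 ± 0.03. In vehicle Ehhadh changed by 1.22, Acot8 by -0.16, Decr2 by -0.11 and Slc27a2 by 0.38. Without the 4 arrays these were 0.48, -0.25, 0.05 and 0.37.

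Other PPARα targets, among them omega-oxidation and fat-handling genes, counted 17 rises and 3 falls among 34 tested members of 36 entries (median 0.28), and 1 fall with array medians equalised. In vehicle 16 rose and 3 fell (median 0.21, and 0.02 without the 4 arrays). Cd36, a fatty acid transporter of the cell surface, had 13.34, 13.52, 13.68, 13.63 and 13.81 at 48 h, against 12.45, 12.43, 12.49, 12.43 and 12.64 at 24 h (change 1.11 ± 0.07, adjusted p = 2.96e-08). Fabp1, the fatty acid binding protein of liver, had 15.52, 15.45, 15.63, 15.53 and 15.57 at 48 h, against 14.68, 14.72, 14.61, 14.55 and 14.76 at 24 h (change 0.88 ± 0.05, adjusted p = 2.3e-09). Neither gene had overlapping times. Vnn1, a pantetheinase, changed by 0.88 ± 0.05, Aqp7, a glycerol channel, by 1.07 ± 0.07, Acot1, a cytosolic thioesterase, by 0.67 ± 0.04 and Cyp4a1, the fatty acid omega-hydroxylase, by 0.40 ± 0.06. Cyp4a1 averaged 15.94 ± 0.04 at 48 h and 15.54 ± 0.15 at 24 h (SD, n = 5 each). Its time change at 250 µM minus that in vehicle was -0.44, and -0.26 without the 4 arrays, so Cyp4a1 rose more in vehicle. In vehicle Cd36 changed by 0.53, Fabp1 by -0.15, Vnn1 by 0.77 and Acot1 by 1.11. Without the 4 arrays these were 1.09, -0.13, 0.72 and 0.57. The vehicle mean of Acot1 was 7.09 at 24 h, under the low-signal limit, and 8.20 at 48 h. The vehicle array left at 48 h without the 4 had 7.655, also under that limit. The Acot1 changes in vehicle therefore cannot be compared in size with its change at 250 µM.

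The interferon-induced genes of the list used here fell or did not pass. Of 22 entries 18 were tested, and 9 fell and 0 rose, with a median of -0.35, and in all 9 the wells at 48 h lay below those at 24 h. Isg15, a ubiquitin-like protein joined to others under interferon, had 9.40, 9.98, 9.37, 9.25 and 9.35 at 48 h, against 11.77, 11.93, 11.71, 11.35 and 11.39 at 24 h (change -2.16 ± 0.14, adjusted p = 2.55e-08). Irf7, the transcription factor that amplifies the response, had 10.41, 10.46, 10.30, 10.39 and 10.66 at 48 h, against 12.03, 11.64, 11.42, 11.88 and 11.72 at 24 h (change -1.29 ± 0.10, adjusted p = 2.35e-07). Usp18, the protease that removes the Isg15 protein from its targets, changed by -1.30 ± 0.09, and Mx2, an antiviral GTPase, by -1.24 ± 0.16. Rsad2, also known as viperin, changed by -0.76 ± 0.14 and Oas1a, an oligoadenylate synthetase, by -0.76 ± 0.11. At 1000 µM 5 of the 18 fell and 0 rose over the same interval, and in vehicle 7 fell and 2 rose. The median in vehicle was -0.20, and -0.16 without the 4 arrays.

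Of the 9 that fell, 6 had a promoter window, and 5 of these 6 held the ISRE letters (TTTC, any 2 bases, then TTTC) on either strand, against 3.77% of all promoters and 2.93% of those of tested genes. Among the motifs searched, the group's promoters most often held this one. The group was taken from a list of interferon-induced genes, and list members that did not fall were not counted separately. The share therefore does not set the genes that fell apart from the rest of the list. The promoters of the 3 genes with the largest fall among those that held it are shown, with the matches in capitals. The Irf7 window is chr1:205799974-205800273 on the minus strand, the Rsad2 window chr6:48788071-48788370 on the minus strand and the Oas1a window chr12:41330216-41330515 on the plus strand.
Irf7: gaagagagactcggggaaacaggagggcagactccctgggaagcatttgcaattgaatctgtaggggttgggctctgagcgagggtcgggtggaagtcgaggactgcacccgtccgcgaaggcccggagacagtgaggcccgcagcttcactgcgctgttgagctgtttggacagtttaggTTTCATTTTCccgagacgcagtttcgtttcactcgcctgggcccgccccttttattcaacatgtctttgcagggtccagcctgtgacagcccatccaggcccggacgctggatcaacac
Rsad2: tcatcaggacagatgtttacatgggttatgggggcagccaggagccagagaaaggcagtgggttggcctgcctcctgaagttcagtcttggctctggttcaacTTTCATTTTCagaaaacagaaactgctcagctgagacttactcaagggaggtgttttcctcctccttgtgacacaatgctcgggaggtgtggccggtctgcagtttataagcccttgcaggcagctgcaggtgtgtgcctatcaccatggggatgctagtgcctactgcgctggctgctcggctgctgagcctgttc
Oas1a: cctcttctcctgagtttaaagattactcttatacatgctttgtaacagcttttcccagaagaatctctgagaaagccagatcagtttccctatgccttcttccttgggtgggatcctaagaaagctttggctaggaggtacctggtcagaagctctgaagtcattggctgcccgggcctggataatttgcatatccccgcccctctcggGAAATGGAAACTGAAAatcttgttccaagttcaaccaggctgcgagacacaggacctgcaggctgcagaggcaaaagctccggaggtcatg
The match began at position -69 in Irf7 and -147 in Rsad2, and Oas1a held 2 overlapping matches that began at -41 and -35 on the other strand. A match is a run of letters and not a measured binding site.

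Acute phase genes mostly fell. Among 24 tested members of 25 entries 15 fell and 1 rose (median -0.21), Il1rn and Il1r2 included. A2m, the protease trap alpha-2-macroglobulin, had 14.28, 13.99, 13.97, 14.24 and 14.09 at 48 h, against 15.43, 15.43, 15.48, 15.48 and 15.45 at 24 h (change -1.34 ± 0.06, adjusted p = 1.57e-10). Serpina3n, a serine protease inhibitor of the acute phase, changed by -0.69 ± 0.04, Hamp, the iron hormone hepcidin, by -0.84 ± 0.12, and Steap4, a metalloreductase, by -0.61 ± 0.10. The one that rose was Crp, C-reactive protein, with 15.04, 15.02, 15.20, 15.13 and 15.28 at 48 h, against 14.45, 14.48, 14.63, 14.33 and 14.59 at 24 h (change 0.64 ± 0.06, adjusted p = 1.63e-06). At 1000 µM the same list had 13 falls and 3 rises, and in vehicle 7 falls and 3 rises. Its median in vehicle was -0.09, and -0.08 without the 4 arrays. Among 16 tested inflammatory chemokine and NF-kB genes, of 24 entries, 3 fell and 1 rose, and 1 fell and 1 rose with array medians equalised. Cxcl1, a neutrophil chemokine, changed by -1.21 ± 0.13, and Cxcl12, a chemokine of the stroma, by 0.60 ± 0.10.

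**Figure D3:**
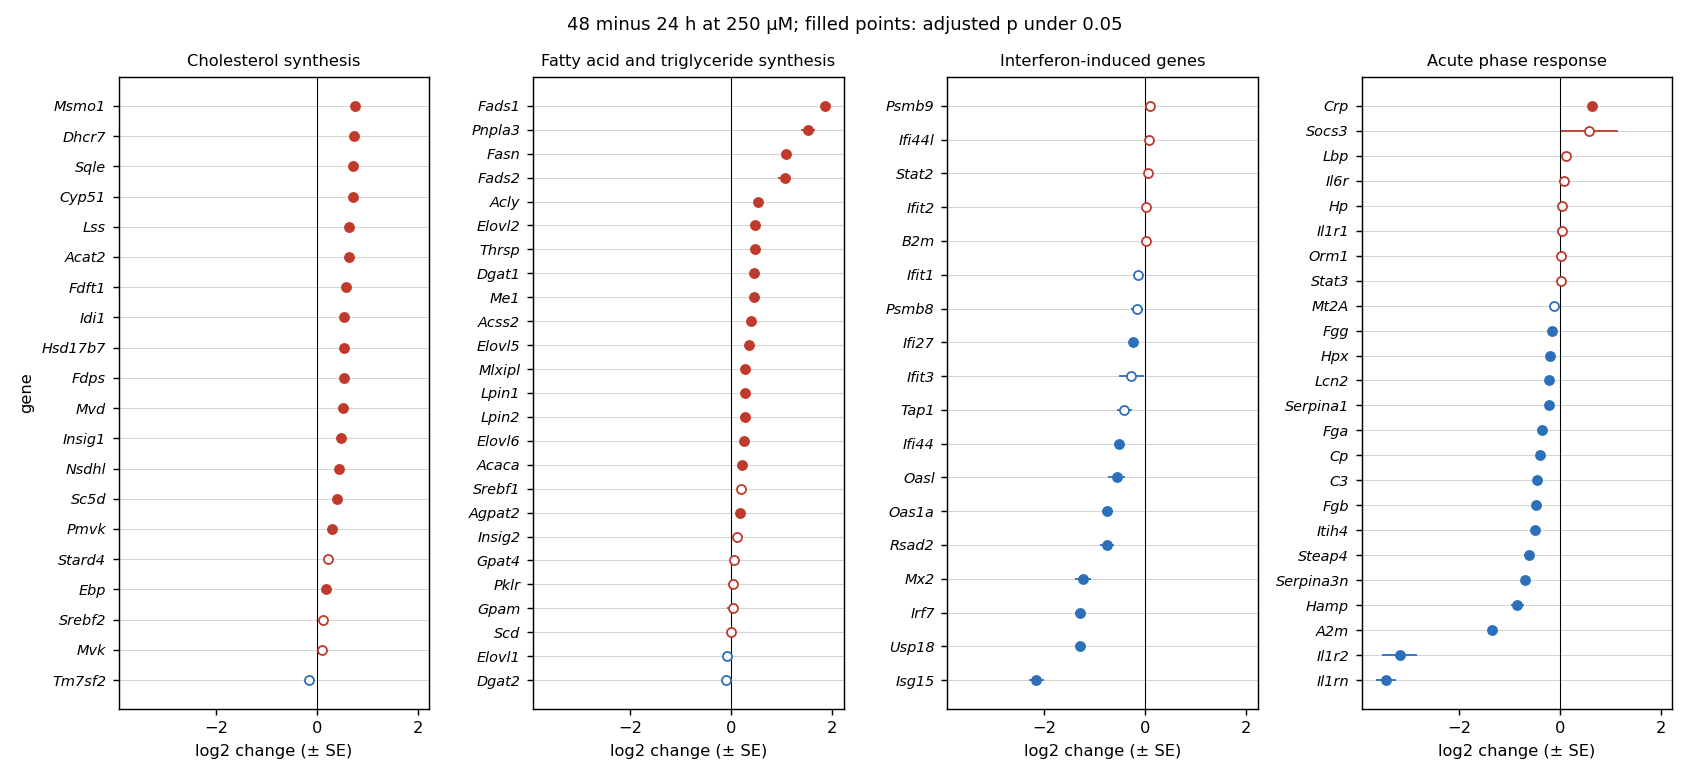
Change of every tested member of 4 gene lists, 48 minus 24 h at 250 µM (horizontal axis, log2, point and standard error of limma), with filled points past the test. The points of both lipid synthesis lists lie mostly right of 0, and those of the interferon and acute phase lists mostly left of it, with Il1rn and Il1r2 the farthest.

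Transcripts that mark hepatocytes and plasma proteins mostly fell or did not pass. Of 35 tested hepatocyte markers, of 40 entries, 17 fell and 2 rose (median -0.16), and with array medians equalised 10 fell and 2 rose. In vehicle 16 fell and 1 rose (median -0.17, and -0.12 without the 4 arrays). Apoa2, an apolipoprotein of high density lipoprotein, had 13.66, 13.70, 13.67, 13.60 and 13.60 at 48 h, against 14.82, 14.85, 14.93, 14.85 and 14.85 at 24 h (change -1.22 ± 0.04, adjusted p = 4.93e-12). Vtn, vitronectin, changed by -0.74 ± 0.04, Ahsg, fetuin-A, by -0.66 ± 0.04 and Car3, a carbonic anhydrase, by -1.44 ± 0.14. Alb overlapped between times (0.08 ± 0.08, adjusted p = 0.604). Of the other defining hepatocyte markers, Ttr had means of 15.76 at 48 h and 15.67 at 24 h, and Apoa1 15.84 and 15.72. Asgr1 had 13.77 and 13.78, Cps1 15.69 and 15.74 and Hnf4a 12.91 and 13.11. In these cultures fewer cells of a type and less RNA per cell cannot be told apart. Of 40 tested plasma protein, coagulation and complement genes, of 50 entries, 19 fell and 8 rose (median -0.12). In vehicle 13 fell and 3 rose (median -0.11, and -0.23 without the 4 arrays). C9, a pore-forming complement protein, changed by -1.16 ± 0.08, Plg, plasminogen, by -0.77 ± 0.06, and Itih4, an acute phase inhibitor chain, by -0.49 ± 0.05.

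Drug metabolism genes regulated by CAR and PXR split evenly, with 10 rises and 10 falls among 31 tested members of 42 entries (median 0.06). In vehicle 7 rose and 13 fell, with a median of -0.17 both with and without the 4 arrays. Constitutive cytochromes of liver were among the falls: Cyp2c13 changed by -1.83 ± 0.07, Cyp2c7 by -1.27 ± 0.09 and Cyp2c23 by -1.10 ± 0.06. Cyp3a2, a steroid hydroxylase that is higher in male rats, had 12.33, 12.29, 12.39, 12.26 and 12.34 at 48 h, against 12.92, 12.91, 12.97, 13.06 and 12.9999 at 24 h (change -0.65 ± 0.05, adjusted p = 8.24e-08). The carboxylesterases Ces1d and Ces2c rose, with 14.38, 14.31, 14.33, 14.32 and 14.39 at 48 h, against 13.38, 13.30, 13.32, 13.32 and 13.41 at 24 h for Ces1d (change 1.00 ± 0.04) and a change of 0.73 ± 0.05 for Ces2c. Cyp3a23-3a1, a PXR target, did not pass (0.11 ± 0.04, adjusted p = 0.127).

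Of 6 tested AhR targets, of 9 entries, 1 rose and 1 fell, and 0 rose with array medians equalised and 2 fell with quantile normalization. Cyp1a2, which oxidises caffeine and aromatic amines, had 11.65, 11.76, 11.68, 11.80 and 11.64 at 48 h, against 13.47, 13.50, 13.52, 13.52 and 13.63 at 24 h (change -1.82 ± 0.05, adjusted p = 1.03e-12). Cyp1a1 had 14.59 ± 0.05 at 48 h and 14.43 ± 0.07 at 24 h (SD, n = 5 each), a small rise of 0.17 ± 0.04 (adjusted p = 0.0112) whose call was lost with array medians equalised (adjusted p = 0.0636). Among 28 tested NRF2 targets, of 32 entries, 11 rose and 4 fell (median 0.09), and 7 rose without replicate 4 at 24 h. Gsta4 and Gsta3, glutathione transferases, changed by 0.56 ± 0.04 and 0.46 ± 0.04, and Srxn1, which repairs oxidised peroxiredoxin, by -0.55 ± 0.05.

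Amino acid and bile acid genes moved in part. Of 40 tested urea cycle and amino acid breakdown genes, of 42 entries, 16 rose and 8 fell (median 0.06), and 4 fell with array medians equalised. At 1000 µM there were 7 rises and 9 falls, and in vehicle 3 and 9, with a median of -0.10 both with and without the 4 arrays. Gpt2, a mitochondrial alanine aminotransferase, changed by 0.86 ± 0.10, Bckdha, a subunit of the branched-chain dehydrogenase, by 0.65 ± 0.07, Fah, the last enzyme of tyrosine breakdown, by 0.45 ± 0.04 and Cth, which makes cysteine, by -0.42 ± 0.05. Of 21 tested bile acid genes, of 24 entries, 5 rose and 2 fell (median 0.13), with 0 falls at equalised array medians and 1 without replicate 2 at 24 h or replicate 2, 3 or 4 at 48 h. Cyp8b1, the sterol 12-alpha-hydroxylase that sets the share of cholic acid, had 13.58, 13.46, 13.44, 13.46 and 13.62 at 48 h, against 12.68, 12.65, 12.49, 12.69 and 12.97 at 24 h (change 0.82 ± 0.07, adjusted p = 6.49e-07). Baat, which joins bile acids to amino acids, changed by 0.79 ± 0.10 and Slc27a5, the bile acyl-CoA synthetase, by 0.55 ± 0.07. Cyp7a1, which opens the main route from cholesterol to bile acids, did not pass (0.12 ± 0.15, adjusted p = 0.672). Glucose genes counted 6 rises and 0 falls of 14 tested (18 entries, median 0.12). The rises were 4 without replicate 1, 2 or 4 at 24 h or replicate 1 at 48 h, and without replicate 4 at 24 h 2 fell. Among the rises, Khk, ketohexokinase, changed by 0.28 ± 0.05 and Fbp1, fructose bisphosphatase, by 0.23 ± 0.04. Of 16 tested glycolysis genes 2 rose, and the larger was Ldhb, a lactate dehydrogenase chain (0.71 ± 0.09).

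The stress lists below held more falls than rises, and fewer falls were called with array medians equalised. In the unfolded protein and integrated stress response list 8 of 30 tested members fell and 3 rose (31 entries, median -0.09), and 2 fell and 2 rose with array medians equalised. Creld2 and Sdf2l1, both of the endoplasmic reticulum, changed by -0.52 ± 0.07 and -0.44 ± 0.07, and Psat1, of serine synthesis, by 0.40 ± 0.04. Of 17 tested p53 targets, of 22 entries, 5 fell and 1 rose, and 1 fell and 1 rose with array medians equalised. Of these targets 3 fell without replicate 1 or 2 at 24 h or replicate 1 at 48 h, and 2 rose without replicate 3 or 5 at 24 h or replicate 1 at 48 h. Cdkn1a, the cell cycle inhibitor p21, had 11.78, 11.68, 11.55, 11.70 and 11.21 at 48 h, against 12.03, 12.07, 11.92, 12.10 and 12.11 at 24 h (change -0.46 ± 0.09, adjusted p = 0.0019). Of 15 tested heat shock genes 0 rose and 2 fell, and 0 fell with array medians equalised. Of the heat shock genes 1 fell without replicate 1 at 24 h or replicate 3 or 4 at 48 h, and 1 rose without replicate 3 at 24 h. Of 15 tested clock genes 4 fell and 0 rose, with Rora at -0.62 ± 0.09, and 1 fell with array medians equalised and 2 without replicate 1 at 24 h.

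Growth and housekeeping lists gave counts that moved with the scaling or with single arrays. Of 30 tested cell cycle genes, of 46 entries, 2 rose and 0 fell, with 1 rise without replicate 2 at 24 h and 1 fall without replicate 2 at 48 h. Spc24, a kinetochore subunit, had 13.74, 13.86, 13.87, 13.90 and 13.79 at 48 h, against 13.32, 13.38, 13.30, 13.32 and 13.34 at 24 h (change 0.50 ± 0.04, adjusted p = 4.4e-07), while Ccnd1, cyclin D1, overlapped (0.10 ± 0.10, adjusted p = 0.554). Of 68 tested oxidative phosphorylation genes, of 76 entries, 9 rose and 1 fell (median 0.05), 2 rose with array medians equalised and 14 with quantile normalization, and the count of rises was 5 to 19 as single arrays were left out, 19 without replicate 3 at 24 h and 5 without replicate 4 at 24 h or replicate 3 or 5 at 48 h. Of 39 tested ribosomal protein genes, of 77 entries, 0 rose and 5 fell, with 0 falls at equalised array medians and 12 with quantile normalization, and 1 rose without replicate 3 at 24 h. Of 33 tested proteasome genes 2 rose, Psme1 (0.28 ± 0.04) and Psme2 (0.35 ± 0.05), the subunits of an activator cap, and 2 fell, with 4 falls under quantile normalization and 1 without replicate 1 or 2 at 24 h or replicate 1, 2, 3 or 4 at 48 h.

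Matrix and cytoskeleton genes were called in both directions. Of 36 tested matrix, laminin and integrin genes, of 52 entries, 5 rose and 4 fell, and 3 rose and 3 fell with array medians equalised. Fn1, fibronectin, had 13.71, 13.40, 13.36, 13.43 and 13.37 at 48 h, against 14.28, 14.25, 14.23, 14.14 and 14.27 at 24 h (change -0.78 ± 0.06, adjusted p = 1.56e-07), and Lox, which crosslinks collagen, changed by -0.65 ± 0.09. Plat, tissue plasminogen activator, changed by 0.60 ± 0.09, and Tgfb2, a growth factor of the matrix, by 0.76 ± 0.16. Of 36 tested dedifferentiation and cytoskeleton genes, of 50 entries, 3 rose and 6 fell, with Acta1 and S100a6 at the ends, and 1 fell with array medians equalised and 6 rose with quantile normalization. Of 17 tested metallothionein and iron genes 5 rose and 3 fell. Of 18 tested Hippo and SRF targets 2 fell, with 0 falls at equalised array medians, 4 without replicate 1 at 48 h and 1 without replicate 1, 2 or 3 at 24 h or replicate 3, 4 or 5 at 48 h. Of 30 tested liver transcription factor genes 3 fell, with 0 falls at equalised array medians and 6 without replicate 2 at 48 h. Ccn2, a target of Hippo signalling, did not pass (-0.04 ± 0.10, adjusted p = 0.873).

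Markers of other liver cells had median changes of -0.40 over the tested Kupffer cell and leukocyte markers, -0.24 over the endothelial, -0.05 over the stellate cell and -0.15 over the cholangiocyte markers, against -0.02 over all tested genes, and their part in the results above was not tested. Of 10 tested Kupffer cell and leukocyte markers 2 fell, C1qa (-1.25 ± 0.35) and RT1-Da (-0.72 ± 0.21, or -0.58 from the low-signal limit), and their summed signal was 24948 to 27045 at 48 h and 26679 to 29476 at 24 h, over 18 of 20 entries on the array. Leaving out replicate 2 at 24 h ended both calls (C1qa -1.17, RT1-Da -0.70), and replicates 1 and 3 at 24 h (-0.74 and -0.69) and 1 and 4 at 48 h (-0.70 and -0.62) ended that of RT1-Da. Of 5 tested endothelial markers Lyve1 (-1.11 ± 0.21, or -0.83 from the limit) and Fcgr2b (-0.91 ± 0.10) fell, and the summed signal of 12 markers was 3301 to 3901 at 48 h and 4707 to 5637 at 24 h, without overlap. Of 9 tested stellate cell markers Lox alone fell, and the sum over 17 was 16987 to 21335 at 48 h and 22955 to 26292 at 24 h. The defining stellate markers over the limit did not all fall with that sum. Des had means of 8.79 at 48 h and 8.94 at 24 h, Col3a1 9.87 and 9.92 and Col1a1 9.2 and 8.93. Of 5 tested cholangiocyte markers Epcam rose (0.30 ± 0.05), with a sum over 10 of 13777 to 15985 at 48 h and 12287 to 12949 at 24 h. Epcam, with a mean level of 13.6 at 48 h, makes up most of that sum. Krt19 went the other way (6.97 at 48 h and 7.77 at 24 h). The defining markers Lrat and Pdgfrb (stellate), Cd163 and Ptprc (Kupffer and leukocyte), Pecam1 and Stab2 (endothelial) and Krt7 and Krt19 (cholangiocyte) had means over the 30 arrays under the low-signal limit, and 0 arrays read any of these markers at 0.

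The change over the same interval in vehicle shares no array with that at 250 µM. In vehicle 2963 genes changed (28.1%), and 405 of the 882 genes that rose at 250 µM (45.9%, and 23.4% of the 1731 that rose in vehicle) rose there too, against 40 that fell. Of the 811 that fell at 250 µM, 366 also fell in vehicle (45.1%, and 29.7% of the vehicle's 1232), against 27 that rose. The changes correlated across the 10528 genes with Pearson's r of 0.42, and 0.31 without the 4 vehicle arrays of raised actin ratio. Scd2, Serpina3c, Serpina6, Cyp2c13 and Apoa2 changed by similar amounts at 250 µM and in vehicle (2.58 and 2.54, -2.34 and -2.43, -2.24 and -2.52, -1.83 and -1.79, -1.22 and -1.13). In vehicle without the 4 arrays these genes changed by 2.35, -2.44, -2.52, -1.81 and -1.16. For genes at least 2-fold higher at 48 h in vehicle, 19 of 37 rose at 250 µM and 0 fell (median 0.67), and for those at least 2-fold lower 22 of 42 fell and 0 rose (median -1.12).

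The difference between the change at 250 µM and that in vehicle was tested in one fit over the 30 arrays. It passed for 880 genes (8.36%), 404 of them with a more positive change at 250 µM (3.84%) and 476 with a more negative one (4.52%). This count rests on the vehicle arrays at 48 h: it was 58 (36 and 22) without the 4 of raised actin ratio, which leaves 1 vehicle array at 48 h assumed to vary like the other groups, and 1789 without the fifth, replicate 4. It was 152 with array medians equalised and 248 in a fit with a term for the actin ratio. Genes are therefore named here only where the difference also passed without those 4 arrays.

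Fabp1 moved in opposite directions, with a change of 0.88 at 250 µM and -0.15 in vehicle, where the wells had 12.97, 12.86, 12.88, 12.91 and 12.87 at 48 h, against 12.99, 13.17, 12.97, 13.10 and 12.98 at 24 h. The difference was 1.02 ± 0.07 (adjusted p = 1.91e-11), and 1.01 without the 4 arrays (adjusted p = 6.36e-07). Cyp3a2 fell at 250 µM by far less than in vehicle, -0.65 against -2.11, a difference of 1.45 ± 0.12 (adjusted p = 1.44e-09, and 1.11e-07 without the 4 arrays). Spc24 rose at 250 µM and fell in vehicle (0.50 and -0.63), a difference of 1.13 ± 0.13 (adjusted p = 8.25e-07, and 3.07e-05 without them). Fads1, Pdzph1, Acot8 and Cyp8b1 also had more positive changes at 250 µM, by 0.76, 0.96, 0.72 and 0.65, with adjusted p = 0.00707, 0.00111, 0.000545 and 0.0236 without the 4 arrays. The difference for Fads1 did not pass with array medians equalised (0.74, adjusted p = 0.0617). With another single vehicle array kept at 48 h, the difference was lost for Fads1 with each of replicates 1, 2, 3 and 5, for Cyp8b1 with replicate 3, for Ahsg with replicate 2, for Usp18 with replicates 2, 3 and 5 and for Steap4 with replicates 1, 3 and 5.

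Il1r2 stood apart on the other side. It changed by -3.17 at 250 µM and by 0.19 in vehicle, where the wells had 11.13, 11.13, 10.91, 11.05 and 11.14 at 48 h, against 10.65, 11.03, 11.39, 10.56 and 10.79 at 24 h, a difference of -3.36 ± 0.38 (adjusted p = 6.25e-07, and 0.00226 without the 4 arrays). S100a6 changed by -1.53 at 250 µM and -0.54 in vehicle (difference -1.0 ± 0.11, adjusted p = 4.03e-07, and 5.26e-07 without them). A2m changed by -1.34 and -0.21 (difference -1.12 ± 0.13, adjusted p = 8.29e-07, and 0.0112 without them), and Isg15 by -2.16 and -0.76 (difference -1.40 ± 0.19, adjusted p = 2.02e-05, and 0.0136 without them). Usp18, Serpina3n, Steap4 and Ahsg also had more negative changes at 250 µM than in vehicle, by -0.74, -0.51, -0.79 and -0.58, with adjusted p = 0.0105, 0.00474, 0.0176 and 0.0226 without the 4 arrays. Among the 24 acute phase genes 7 had a more negative change at 250 µM than in vehicle and 1 a more positive one. Their median difference was -0.24, and -0.18 without those arrays. Among the 36 matrix genes 11 had a more negative change (median difference -0.29, and -0.15 without them). Among the 68 oxidative phosphorylation genes 20 had a more positive change (median difference 0.19, and 0.11 without them). Of the 20 cholesterol genes 7 had a more positive change (median difference 0.24, and 0.26 without them). Over all tested genes the median difference was -0.05, and -0.02 without them. In the fit with all vehicle arrays 3.84% of all tested genes had a more positive change and 4.52% a more negative one. The list counts here come from that fit and rest on the vehicle arrays at 48 h, as the count over all genes does.

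**Figure D4:**
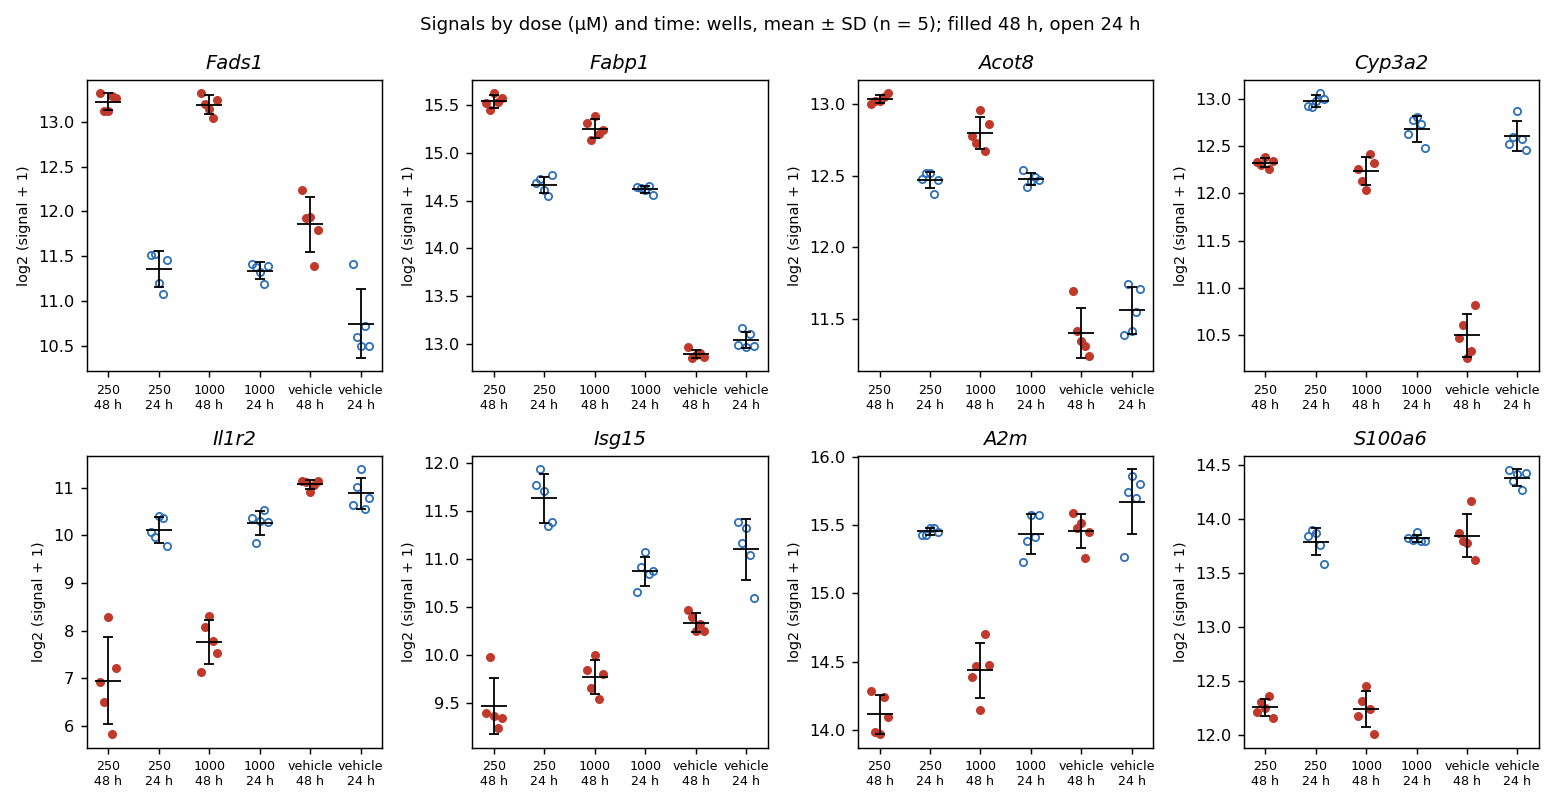
Levels of 8 genes as log2 (signal + 1) by dose and time, with 1 point per well (filled at 48 h, open at 24 h) and the mean ± SD of 5 wells. The drop of Il1r2 and A2m between times is seen at both doses, and Fabp1 is higher at 48 h at both doses and slightly lower at 48 h in vehicle.

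At 1000 µM the same interval changed 1897 genes (18%), again with no shared array and with calls from the fit of all 30 arrays. Of the 882 genes that rose at 250 µM 544 rose there (61.7%, and 52.2% of the 1043), and of the 811 that fell 470 fell (58.0%, and 55.0% of the 854), with 0 in the opposite direction. Pearson's r across the 10528 genes was 0.61. S100a6 changed by -1.53 at 250 µM and -1.58 at 1000 µM, and Fads1 by 1.87 and 1.85. Il1rn and Il1r2 fell at both doses to means under the low-signal limit at 48 h. In vehicle Il1rn fell as well, by -2.28 to a mean of 7.53 at 48 h, also under that limit. Its time change at 250 µM did not pass as different from that in vehicle (-1.16 ± 0.40, adjusted p = 0.0637). The difference between the doses in the time change passed for 2 genes (0.019%), against 768 at an unadjusted p under 0.05. They were Isg15, which fell more at 250 µM (-2.16 and -1.10, difference -1.06 ± 0.19, adjusted p = 0.024), and Ints7, a subunit of the Integrator complex, with 9.0, 9.40, 7.84, 9.03 and 7.71 at 48 h, against 10.37, 10.17, 9.69, 10.05 and 10.26 at 24 h at 250 µM (difference -2.18 ± 0.37, adjusted p = 0.0171). This count was 0 to 3 as single arrays were left out, so both calls are thin: it was 0 without replicate 1 at 24 h or replicate 3 at 48 h of 250 µM, and without replicate 4 at 24 h or replicate 1 at 48 h of 1000 µM. Few calls do not show that the doses act alike.

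**Figure D5:**
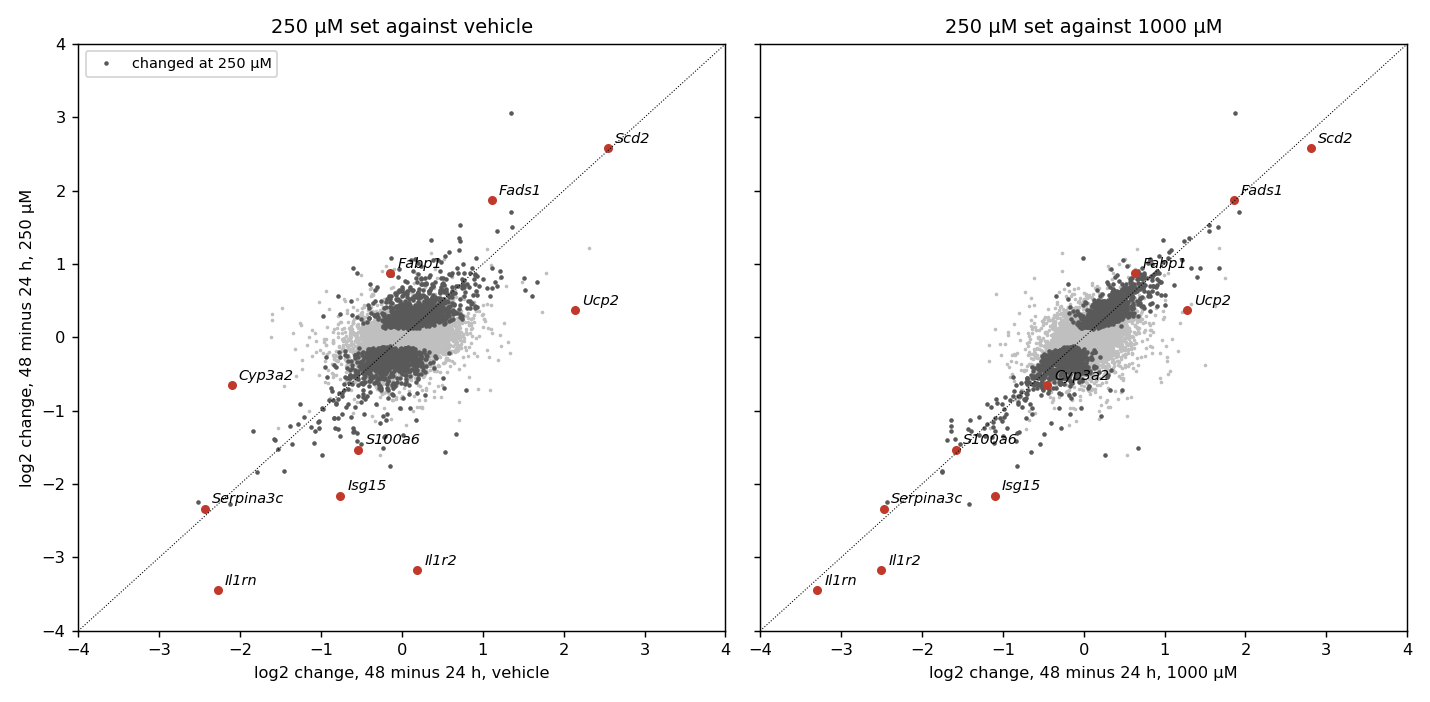
Change at 250 µM (vertical axis, log2, 48 minus 24 h) against the change in vehicle (left) and at 1000 µM (right) for 10528 genes, with genes called at 250 µM in dark grey and 10 named genes in red. Il1r2 and Fabp1 lie off the dotted line of equality on the left and nearer to it on the right.

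At 24 h, 95 genes were at least 2-fold higher at 1000 µM than in vehicle, a choice made on arrays outside this comparison, and between 24 and 48 h at 250 µM 45 of them rose and 8 fell (median 0.20). In vehicle, whose arrays at 24 h also served to choose the genes, 40 of the 95 rose and 9 fell (median 0.21). The 41 genes at least 2-fold lower at 1000 µM gave 8 rises and 5 falls at 250 µM (median -0.04) and 12 and 3 in vehicle (median 0.18).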

How the data were processed

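RNA of 30 wells was measured on Affymetrix rat arrays, and the authors deposited 1 intensity per probe set and array, made with MAS5 per the submitters' processing notes (version not given in the sources used here). Their trimmed mean was 1500.6 to 1500.7 on each array. Signals were taken as log2 (signal + 1) without further scaling, since array medians spanned 0.34, under the bound of 0.5. Of 31099 probe sets, 57 controls and the 40% with the lowest mean (limit 7.88) were left out. Symbols came from the platform table, updated by Entrez identifier through RefSeq, and the probe set of highest mean was kept for each of 10528 genes. The change at 250 µM was tested with limma 3.58.1 in R 4.3.3 on its 10 arrays, with a mean-variance trend, and the comparisons with vehicle and 1000 µM on 30 arrays. The test was tried on simulated data. The number of arrays limits the precision.

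Members and gene lists were chosen with earlier results of these data known. Named genes are the 12 largest rises and falls without overlap whose higher mean passed the limit, up to 4 changed members of each list by smallest p, the largest differences from vehicle (4 each way) and 1000 µM (2 each way) and the tested members of a set of genes chosen by name. Rsad2, Oas1a, Msmo1, Lss, Car3, Cyp2c7, Aqp7 and Ebp were named after their values were seen. Promoters were searched on both strands for DR1 (AGGTCA repeated with 1 base between), SRE (TCACNCCAC), CCAAT, E2F (TTTCGCGC), ISRE (TTTC, any 2 bases, TTTC), AP-1 (TGANTCA), CRE (TGACGTCA), ATF4 composite (TGATGNAAT), HNF1 (GTTAAT, any base, ATTAAC) and D-box (TTATGNAA). Alternatives changed the scaling, pseudocount, filter, variance trend, probe set choice, covariates and arrays, and each vehicle array of raised actin ratio as the only one at 48 h, and runs of 6 array numbers as a block, were added after seeing the data.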

Additional observations from a re-analysis of the deposited data

Results flagged for a closer look

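The check covered 112 of the 150 named genes, those printed in the text, and 3 array quality measures, at each time. Among these 230 groups of 5 wells, 14 held a well set off from the other 4 by Dixon's test, and chance marks about 1 in 20 groups. At 48 h, replicate 1 was highest for Gstp3 (7.85, others 6.75 to 6.89) and Fn1 (13.71, others 13.36 to 13.43), and replicate 2 for Isg15 (9.98, others 9.25 to 9.40). Replicate 4 at 48 h was lowest for Cxcl1 (8.79, others 9.20 to 9.35) and replicate 3 for Car3 (8.90, others 9.53 to 9.68). At 24 h, replicate 1 was lowest for Ggt1 (8.79) and Syn1 (8.23), replicate 4 for Dhcr7 (13.13) and Pdk4 (15.0005), and replicate 5 for Ccnd1 (10.23). At 24 h, replicate 3 was highest for Gsta4 (14.60) and Apoa2 (14.93), also for Actr2-ps1 (11.12), and replicate 5 for Msmo1 (13.95). These are log2 signals.

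The time change at 250 µM differed from that in vehicle for 48 of the same 112 genes, by the interaction term of limma (adjusted p under 0.05). Without the 4 vehicle arrays of raised actin ratio it passed for 16 of them and not for 32. The log2 differences that passed both ways and were positive were Fads1 (0.76), Pdzph1 (0.96), Acot8 (0.72), Fabp1 (1.02), Cyp8b1 (0.65), Cyp3a2 (1.45), Spc24 (1.13) and Aqp7 (0.91). Those that passed both ways and were negative were Il1r2 (-3.36), Isg15 (-1.40), S100a6 (-1.0), Ahsg (-0.58), A2m (-1.12), Serpina3n (-0.51), Usp18 (-0.74) and Steap4 (-0.79). Positive differences that did not pass without the 4 arrays were Actr2-ps1 (1.35), Pnpla3 (0.81), Ubd (0.59), Decr2 (0.50), Acadm (0.32), Acads (0.38), Bdh1 (0.86), Ces2c (0.35), Gsta4 (0.41), Gsta3 (0.39), Idi1 (0.38), Baat (0.55), Khk (0.32), Fah (0.46), Bckdha (0.52), Crp (0.63), Cxcl12 (0.56), Psme2 (0.40), Psme1 (0.26) and Msmo1 (0.57). Negative ones that did not were Cyp1a2 (-0.36), Syn1 (-2.10), Cdkn1a (-0.52), Ldhb (-0.47), Vtn (-0.35), Itih4 (-0.37), Irf7 (-0.69), Fn1 (-0.67), Lox (-0.74), Ints7 (-1.27), Cyp4a1 (-0.44) and Rsad2 (-0.95). Between the doses, the time change at 250 µM differed from that at 1000 µM for Isg15 (-1.06) and Ints7 (-2.18).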

How the results depend on the processing

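The 143 named genes called changed at 250 µM were recomputed under the alternatives, giving 2991 values. Of these, 2859 kept the direction and the call, 132 kept the direction and lost the call, and 0 reversed. Array medians equalised cost 27 calls, a test without the variance trend 19 and a fit of all 30 arrays 19. The count at 250 µM was 974 with array medians equalised and 1360 to 1681 as single arrays were left out, and that at 1000 µM 876 and 1502 to 2093. The count in vehicle was 4638 with every probe set on its own, 749 with the actin ratio as a covariate, 146 without the 4 arrays of raised ratio, and 1158, 1542 and 1080 with replicate 2, 3 or 5 as the only one at 48 h. It was 2425 to 3690 as single arrays were left out. The difference from vehicle passed for 152 genes with array medians equalised, 248 with the covariate, 58 without the 4 arrays, 383, 570 and 336 with replicate 2, 3 or 5 alone, and 609 to 1789 as single arrays were left out. The difference from 1000 µM passed for 1 gene with array medians equalised, 1 with quantile normalization, 0 without the trend, and 0 to 3 as single arrays were left out. The median of the genes raised at 1000 µM was 0.248 with array medians equalised (0.165 to 0.224 as arrays were left out), and that of the genes raised with time in vehicle 0.754 with 60% of probe sets left out. The median of the genes lowered at 1000 µM was -0.0801 to 0.0203 as arrays were left out. Ccn2, not called, had 0.0152 with array medians equalised, 0.0144 with array number as a covariate and -0.0822 to 0.0432 as single arrays were left out. The difference from vehicle of Actr2-ps1, 1.35, became -0.0535 without the 4 arrays. The actin ratio difference of -0.0037 was -0.0633 to 0.0405 as single arrays were left out. The causes were not tested. The titles number the arrays over the whole series, and each run of 6 numbers holds every group once, though no label says that a run shares a batch. Taking the 5 runs as a replicate block, chosen after seeing the data, gave 1717 genes at 250 µM (1580 of them among the 1693), 3094 in vehicle, 2058 at 1000 µM, 1041 for the difference from vehicle and 2 for that from 1000 µM, and 2 of the 143 genes lost the call, RT1-Da (adjusted p = 0.0528) and Ebp (adjusted p = 0.0721). At 250 µM, deviations of same-run wells from their time's mean correlated across genes by 0.0005 to 0.095, and 3 of 5 wells at 48 h and 1 of 5 at 24 h correlated best with that of their own run, so pairing was not assumed. Signals near the low-signal limit bound how far a fall can be measured.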
